A study of Macaca fascicularis with 2 samples.

Results

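The genes described are the bone morphogenetic protein (BMP) and growth differentiation factor (GDF) ligands BMP2, BMP4, BMP6, GDF5 and GDF6 and the secreted antagonists GREM1, CHRDL1 and CHRDL2. They were chosen by name, and 8 of the 10 genes named were analysed, out of 21371 genes listed in the count matrix. BMP5 and NOG were not analysed here. The study profiled single cells of cynomolgus monkeys, from articular cartilage (AC) and from the gelatinous core of the intervertebral disc, the nucleus pulposus (NP), to relate notochordal cells, the NP cells that stem from the embryonic notochord, to chondrocyte-like cells and articular chondrocytes. The cells came from 2 wild-type male animals, 3 years old, for which the labels give no treatment, and were pooled into 1 library made with TAS-seq, a method that amplifies the cDNA captured on barcoded beads. By the labels, 3 tissue samples went into it, the femoral AC of each animal and the lumbar NP of 1 of them. The cells were marked with 4 antibody tags, A951 to A954, and none of the sources used here pairs a tag with a tissue, so cells are given by tag and not by tissue. Live cells that bound the label had been sorted before capture.

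The library held 5723 cells and 1354369622 reads, and the median cell had 198057 reads on 3822 genes. Of these cells, 5674 carried a single tag, 42 were called doublets and 7 had no tag, and 5653 with a single tag passed the limits on quality. Cells with 5 or more reads of KRT19 and 5 or more reads of TBXT, a keratin and the transcription factor brachyury, were taken as notochordal, which gave 310 cells, and the remaining 5343 are called other cells. The notochordal cells had a median of 186370 reads and the other cells 199072, so depth was close. The tags differed widely in their notochordal cells. A951 had 67 (6.73% of its cells), A952 had 236 (21.0%), A953 had 5 and A954 had 2, and the values of the last pair of tags therefore rest on very few cells. The 5 notochordal cells of A953 also had a median of 6612 genes detected, against 3816 in the other cells of that tag, and whether any of them holds RNA of more than 1 cell was not tested.

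BMPs and GDFs are secreted dimers of the transforming growth factor β superfamily that bind complexes of type I and type II serine/threonine kinase receptors, which phosphorylate SMAD1, SMAD5 and SMAD9 and switch on genes such as the ID family. They drive chondrogenesis, joint formation and bone growth. Gremlins, noggin and the chordin family bind the ligands outside the cell and keep them from the receptors.

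The label of the notochordal cells was compared with markers that the rule did not use. NCAM1 was at 506 reads per 1000000 reads (rpm) in notochordal and 25.2 rpm in other cells, CDH2 at 120 and 1.16 rpm, and SHH, the hedgehog ligand, at 98.7 and 0.847 rpm. The early notochord factors NOTO, at 0.0151 and 0.0518 rpm, and FOXA2, at 0.908 and 5.46 rpm, went against the label, since both were near 0 in notochordal cells and not higher there than in other cells. KRT8, KRT18 and CD24 were not analysed here. The 4 immune markers summed to 12.8 rpm in notochordal and 45.9 rpm in other cells, led by CD68 (9.64 and 17.4 rpm) and CD74 (1.76 and 27.6 rpm, with 5 or more reads in 3.84% of other cells), whereas PTPRC was at 1.30 and 0.700 rpm. The 3 endothelial markers summed to 2.80 and 2.15 rpm, with VWF first at 1.41 and 1.32 rpm. Their part in the results was not tested. Chondrocyte genes were read in notochordal cells too. COL2A1 had reads in 100% of the cells of each group, at 1269 rpm in notochordal and 20072 rpm in other cells, and PRG4, which encodes lubricin, was at 1138 and 12569 rpm. COL9A1, COL11A1, MATN3 and HAPLN1 were also lower in notochordal cells, whereas ACAN, which encodes aggrecan, was at 14440 and 3968 rpm and the chondrogenic factor SOX9 at 1120 and 346 rpm.

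All 5 ligands had lower pooled levels in notochordal than in other cells, as did the antagonists GREM1 and CHRDL2, whereas CHRDL1 alone of the 8 genes was higher. A level here is the reads of a gene summed over a group of cells, per 1000000 reads of those cells, and is compared only within a gene, since it is not corrected for gene length. BMP2, a strong inducer of chondrogenesis, was at 940, 911, 671 and 603 rpm in the other cells of A951, A952, A953 and A954. In notochordal cells of the same tags it was at 74.8, 12.7, 72.8 and 3.80 rpm, the last from 1 read. In A951 a single notochordal cell held 414 of the 913 reads, and without it the level of that tag was 41.7 rpm. The ranges did not overlap, and the lowest level of other cells was several times the highest level of notochordal cells. Pooled over tags the level was 26.2 rpm (95% exact Poisson interval, 25.0 to 27.5) in notochordal and 717 rpm (716 to 719) in other cells, a log2 ratio of -4.77 (-4.84 to -4.71). The ratio was -3.23 without A952, -2.40 with 5 or more reads of KRT19 and TBXT added together as the rule, and -1.67 with 1 or more reads of each. These intervals, and all that follow, cover counting error only, and they are too narrow because the reads include PCR copies of the same molecule. With 1 library there are no replicates of a group, and no statistical test was made.

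**Figure D1:**
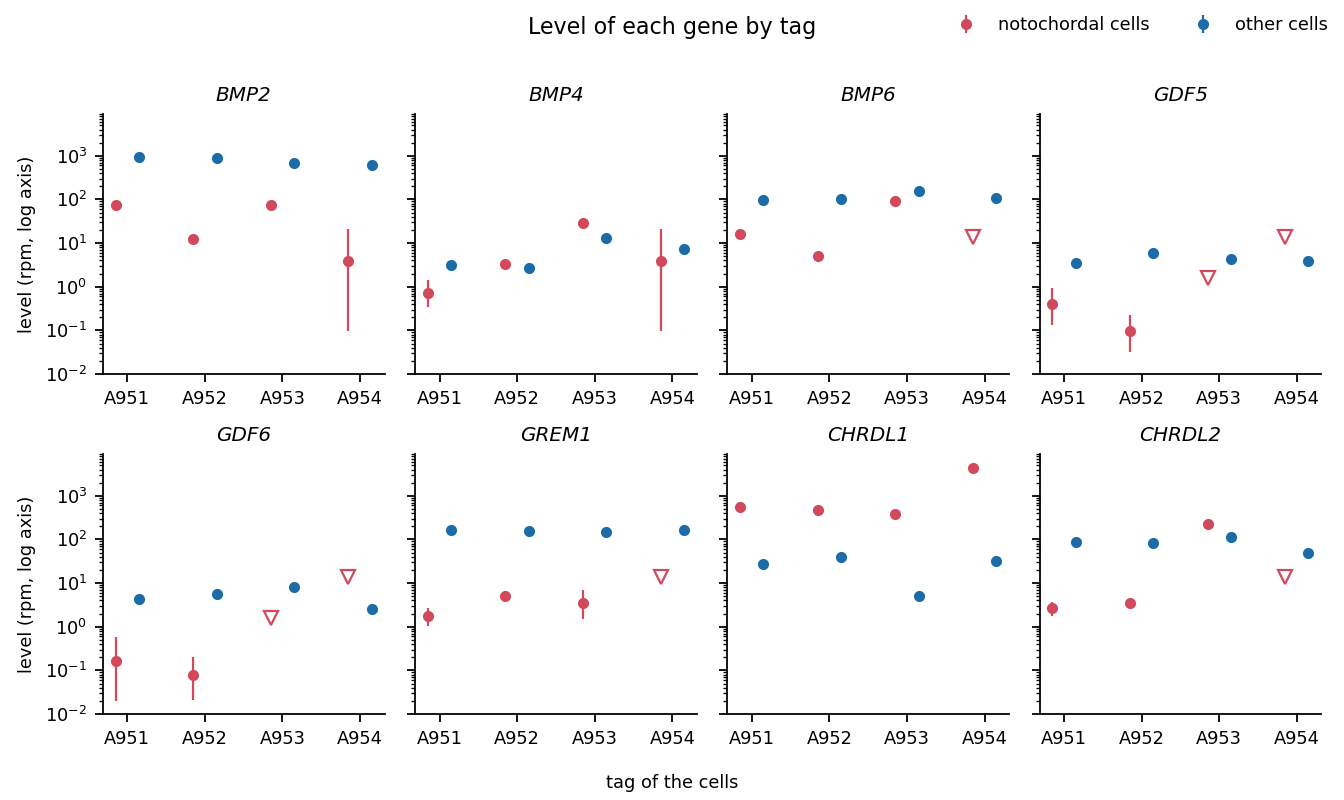
Level of each gene in reads per 1000000 reads (rpm, log axis) in notochordal cells (red) and other cells (blue) of each tag (x axis), with 95% exact Poisson intervals. Open triangles mark the upper limit where no read was counted. CHRDL1 lies higher in notochordal cells in each tag, and BMP2 and GREM1 lie lower, where reads of GREM1 in A954 were 0.

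With 5 or more reads, BMP2 was found in 24 of 310 notochordal cells (7.74%, exact interval 5.02 to 11.3) and in 3702 of 5343 other cells (69.3%, 68.0 to 70.5). At 1 or more reads the shares were 59.0% and 87.0%. For comparison, MATN3, CILP and ASPN, which the cell rule did not use, were at 425, 269 and 263 rpm in other cells. They had a read in 52.3%, 38.7% and 38.7% of notochordal cells, and 5 or more reads in 4.52%, 3.23% and 0.323%. BMP2 was more abundant in other cells than these genes, and whether its reads in notochordal cells were RNA carried over from other cells was not tested. Shares are given at 5 reads below. BMP2 was uneven in both groups, and the 10% of notochordal cells with most reads held 84.1% of them. Among other cells it varied widely too. The median cell had 200 rpm, the 90th percentile was 2116 rpm and the highest cell 17790 rpm, and the 10% of cells with most reads held 56.5% of them.

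BMP6, a ligand of maturing chondrocytes, was at 96.5, 102, 153 and 105 rpm in the other cells of A951, A952, A953 and A954. In notochordal cells it was at 15.7, 5.18, 92.2 and 0 rpm in the same order. A953 stood highest in both groups, and the notochordal value of A953 came close to the lowest value of the other cells. Most of it was 1 cell, which held 179 of the 209 reads, and without that cell the level in A953 was 17.6 rpm. Pooled, BMP6 was at 10.1 and 116 rpm, a log2 ratio of -3.52 (-3.63 to -3.41), which was -2.12 without A952 and -0.97 with 1 or more reads of KRT19 and of TBXT as the rule, under 2-fold. With 5 or more reads of each as the rule, 1.61% of notochordal and 32.8% of other cells had 5 or more reads.

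BMP4, the closest relative of BMP2 among the ligands, was scarce and did not differ in 1 direction. In other cells it was at 3.19, 2.63, 13.4 and 7.48 rpm in A951 to A954, so that A953 was 5.11 times A952. In notochordal cells it was at 0.738, 3.29, 28.7 and 3.80 rpm, the last from 1 read. The 2 groups overlapped, with a log2 ratio of -2.11 in A951, 0.33 in A952 and 1.10 in A953. The pooled log2 ratio of -1.05 (-1.24 to -0.87) thus joined tags of opposite sign, and it became 0.24 when the other cells were weighted to the tags of the notochordal cells, a comparison added after the data were seen. In A952 a single notochordal cell held 94 of 169 reads, and without it the log2 ratio was -0.84 in that tag and -1.75 pooled. Without that cell A951 and A952 had the same sign, and A953, with 5 notochordal cells, had the opposite one. Taking out the notochordal cell with most reads lowers the ratio, no other cell was taken out, and this was also chosen after the data were seen. No agreement between tags is therefore read from it. With cells thinned to 50000 reads the pooled ratio was -1.87. BMP4 reached 5 reads in 3 notochordal cells (0.968%) and 142 other cells (2.66%).

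GDF5 and GDF6, ligands of joint formation, were rare in other cells and hardly read in notochordal cells. GDF5 was at 3.52, 5.92, 4.23 and 3.84 rpm in the other cells of A951 to A954, and had 10 reads in all notochordal cells together, 5 in A951 and 5 in A952, each in a different cell. GDF6 was at 4.43, 5.49, 8.22 and 2.48 rpm, and had 6 reads in notochordal cells, 2 in A951 and 4 in A952. No notochordal cell had 5 reads of either gene, which allows a share of up to 0.968% (3 of 310 cells; the exact upper limit is 1.18%), against 3.18% of other cells for GDF5 and 1.38% for GDF6. The pooled log2 ratios were -4.79 (-5.85 to -3.91) and -5.70 (-7.14 to -4.57). With 1 or more reads of KRT19 and of TBXT as the rule, the ratio of GDF6 turned to 0.48, and with the mean of log2(rpm + 1) per cell that of GDF5 was -0.31. Neither gene had a read in the notochordal cells of A953 and A954. The upper exact Poisson limit for 0 reads was 1.63 rpm in A953 and 14.0 rpm in A954. In A953 only 10.9% (GDF5) and 5.90% (GDF6) of other cells had a read, so 0 reads in 5 notochordal cells cannot show a difference. In A954 a difference was not detectable at this depth.

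Among the antagonists, GREM1, a gremlin that binds BMP2 and BMP4, was the most even across tags in other cells, at 165, 160, 145 and 167 rpm in A951 to A954. In notochordal cells it was at 1.72, 4.99, 3.53 and 0 rpm. The groups were far apart in each tag with reads, with log2 ratios of -6.59, -5.00 and -5.36 in A951, A952 and A953. Of the 285 notochordal reads, 143 lay in 1 cell of A952, and without it the pooled log2 ratio was -6.21. Pooled, the level was 4.31 rpm in notochordal and 160 rpm in other cells (log2 ratio -5.21, -5.39 to -5.05). The ratio was -6.35 without A952 and -1.62 with 1 or more reads of KRT19 and of TBXT as the rule. With 5 or more reads of the pair added together it was -1.99. With 5 or more reads of each as the rule, 0.968% of notochordal and 35.0% of other cells had 5 or more GREM1 reads.

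CHRDL1, a chordin-like antagonist, was the reverse. It was at 561, 466, 376 and 4377 rpm in the notochordal cells of A951 to A954, where the last value came from 1 of 2 cells. In other cells it was at 27.3, 39.8, 5.14 and 32.1 rpm. Each notochordal level exceeded all levels of other cells, and the log2 ratio was 4.36 in A951, 3.55 in A952 and 6.19 in A953. Pooled, the level was 496 rpm (490 to 501) against 25.4 rpm (25.2 to 25.7), a log2 ratio of 4.28 (4.26 to 4.31). At 5 or more reads it was found in 209 of 310 notochordal cells (67.4%, 61.9 to 72.6) and in 417 of 5343 other cells (7.80%, 7.10 to 8.56). The notochordal cells were not uniform, with a median of 238 rpm, a 90th percentile of 1420 rpm and 75.5% of cells with a read.

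CHRDL2, the second chordin-like antagonist and known from cartilage, went the way of GREM1 in the tags with most notochordal cells. It was at 85.5, 81.7, 112 and 47.7 rpm in the other cells of A951 to A954 and at 2.62, 3.58, 229 and 0 rpm in the notochordal cells. A953 stood apart with a log2 ratio of 1.04 from its 5 notochordal cells, against -5.03 in A951 and -4.51 in A952. One of these 5 cells held 459 of the 520 reads, and 8035 genes were detected in it. Without that cell the log2 ratio was -1.36 in A953 and -4.14 over all tags, against -2.75 (-2.86 to -2.65) with it. Without A952 it was -0.98, and with 1 or more reads of KRT19 and of TBXT as the rule -0.99, both under 2-fold. CHRDL2 reached 5 reads in 2.58% of notochordal and 17.4% of other cells.

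The combinations of antagonists differed between the groups. In notochordal cells, 65.2% had 5 or more reads of CHRDL1 and of neither other antagonist, 31.6% had none of the 3, and no cell had GREM1 alone. In other cells, 24.0% had GREM1 alone, 10.0% CHRDL2 alone, 2.94% CHRDL1 alone and 51.8% none, and 3.91% had GREM1 together with CHRDL1. Of the 417 other cells with CHRDL1, 209 thus also had GREM1 and no CHRDL2.

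All 8 genes were detected in at least 1% of kept cells and entered the comparison with all genes. A gene was counted as different at a level ratio of at least 2-fold. Of the 8, 1 was higher in notochordal cells, where 24.5% of the 13498 genes compared were higher, and 7 were lower, where 13.6% of all genes were lower. The 7 became 3 when 1 or more reads of KRT19 and of TBXT defined the notochordal cells and 4 when the mean of log2(rpm + 1) per cell was used. The median log2 ratio of all these genes was 0.26. Within A951 and within A952, which hold 303 of the 310 notochordal cells, CHRDL1 was at least 2-fold higher in each, as were 16.0% of all genes, and 6 of the 8 were at least 2-fold lower in each, as were 9.48% of all genes. BMP4 was in neither count. GDF6 in A951 had under 3 notochordal reads and was set to 3, so that its log2 ratio there, -4.17, is a bound.

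**Figure D2:**
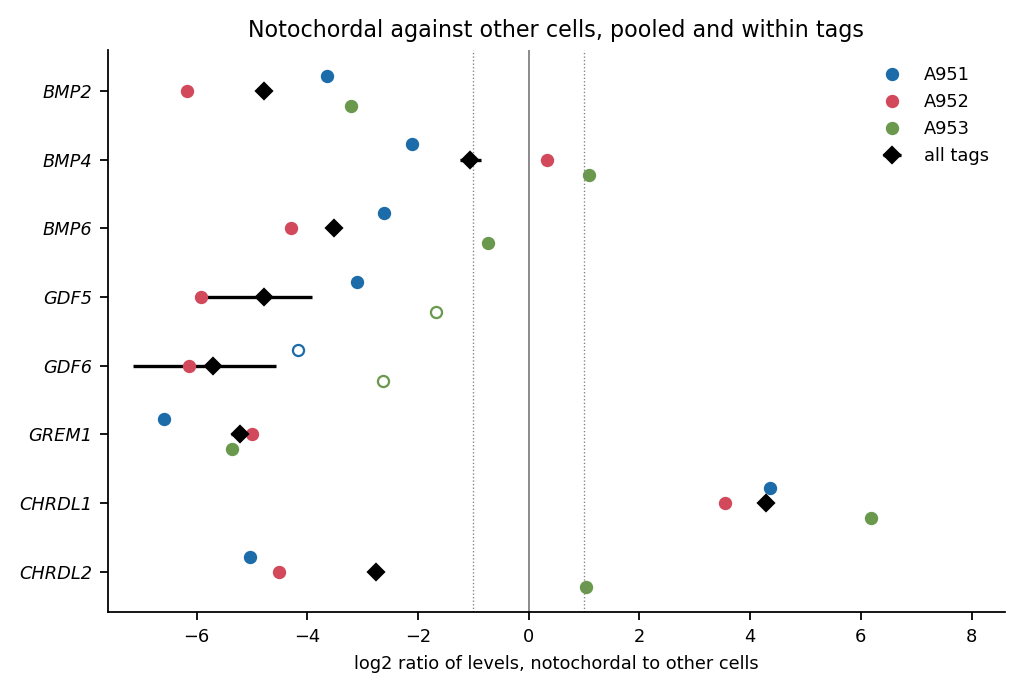
Log2 ratio of the level in notochordal to that in other cells (x axis) for each gene, over all tags (black diamonds, with 95% counting intervals) and within A951, A952 and A953 (coloured circles). Open circles had under 3 notochordal reads and were set to 3, A954 is left out for its 2 notochordal cells, and dotted lines mark 2-fold. CHRDL1 is to the right of 0 in the 3 tags, and BMP4 and CHRDL2 lie on both sides.

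CHRDL1 in other cells varied most between tags. Its level was 7.73 times higher in A952 than in A953, against 1.15 times between the highest and lowest tag for GREM1, 1.56 for BMP2, 1.58 for BMP6, 1.68 for GDF5, 2.34 for CHRDL2, 3.31 for GDF6 and 5.11 for BMP4. Cells with 5 or more CHRDL1 reads made up 8.51% of the other cells in A951 (exact interval, 6.80 to 10.5), 9.11% (7.30 to 11.2) in A952, 1.46% (0.893 to 2.24) in A953 and 11.0% (9.71 to 12.4) in A954. A953 had the lowest share, and the spread between samples of 1 kind is not known here, so the difference between tags was not tested. Some of these cells lay near the notochordal rule. In A952, 23 of the 81 had 5 or more reads of KRT19 or TBXT and held 42.4% of the CHRDL1 reads of the other cells, whereas in A954 this was 3 of 237 cells with 0.580% of the reads. Nearly all CHRDL1 reads of the other cells of A954 thus lay in cells with fewer than 5 reads of either marker.

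Other genes of the pathway, and related ligands of the superfamily such as activin subunits, were described by lists of ligands, antagonists, receptors, SMADs and targets. Each list was read against all genes compared, of which 24.5% were at least 2-fold higher and 13.6% lower, with a median log2 ratio of 0.26. Of 8 other ligands, 0 were at least 2-fold higher and 6 were lower in notochordal cells, with a median of -2.47. The activin subunit genes INHBA and INHBB are among the 6. Also among them is BMP7, at -1.49 pooled but under 2-fold in A951 (-0.40) and in A952 (-0.95). GDF2, counted as lower too, had only 3 notochordal reads. INHBA, which encodes the activin A subunit and had the most reads of the list over all kept cells, was at 551 rpm in notochordal and 6432 rpm in other cells, a log2 ratio of -3.54. GDF10, a ligand also called BMP3B, was at 15.8 and 113 rpm (-2.83), but the sign was opposite in the 5 cells of A953, at 1.61.

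Of 16 other antagonists and modulators, 4 were higher, a share near the 24.5% of all genes, and 4 were lower (13.6% of all genes), with a median of -0.06. FSTL1, a follistatin-like glycoprotein, was at 1263 rpm in notochordal and 262 rpm in other cells, a log2 ratio of 2.27, and NBL1, a DAN family antagonist, at 941 and 322 rpm (1.55). Both were higher in each of A951 and A952. On the lower side were SOST, which encodes sclerostin (-4.31), TLL1, a protease that cleaves chordin (-2.66), the BMP-binding BMPER (-2.64) and CRIM1 (-1.22), which had the most reads of the list over all kept cells, at 294 and 685 rpm. In the 5 cells of A953 the sign was opposite for TLL1 (0.51) and BMPER (0.44).

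Of 12 receptors and co-receptors, 4 were higher and 4 lower, with a median of 0.04, against 24.5% and 13.6% of all genes. BMPR2, the type II receptor and the gene of the list with most reads over all kept cells, was at 41.9 rpm in notochordal and 151 rpm in other cells, a log2 ratio of -1.85. The type I receptor ACVR1 was lower as well (-1.75), as were the co-receptors ENG (-3.11) and RGMA (-2.61). ACVR2A, a type II receptor shared with activins, was higher (1.84, but -0.94 in the 5 cells of A953) and so was the co-receptor RGMB (1.71). The log2 ratio of BMPR1B was 1.12 pooled, but -0.96 in A951, 0.92 in A952 and -0.64 in A953.

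Of 7 SMADs and SMURFs, 0 were higher (24.5% of all genes) and 2 lower (13.6% of all genes). The lower genes were SMAD9 (-1.40), a receptor-activated SMAD, and SMURF1 (-1.33), a ubiquitin ligase that marks SMADs and receptors for decay. SMAD5, with most reads over all kept cells, was at 68.6 and 84.1 rpm. Of 11 targets, 5 were higher (24.5% of all genes) and 2 lower (13.6% of all genes), with a median of 0.86. The inhibitors of DNA binding ID1 (207 rpm in notochordal and 72.4 rpm in other cells, log2 ratio 1.51), ID3 (116 and 36.7 rpm, 1.66) and ID4 (357 and 47.3 rpm, 2.91) were higher in each of A951, A952 and A953. In the 2 cells of A954 the log2 ratio of ID1 was -2.70. ID2, the target with most reads over all kept cells, was at 1131 and 1975 rpm (-0.80). DLX5, a homeobox gene of bone and cartilage, was lower (-4.66). RUNX2, the osteoblast factor, had a log2 ratio of 1.27 pooled and 1.33 in A952, but -1.26 in A951 and -1.66 in A953.

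**Figure D3:**
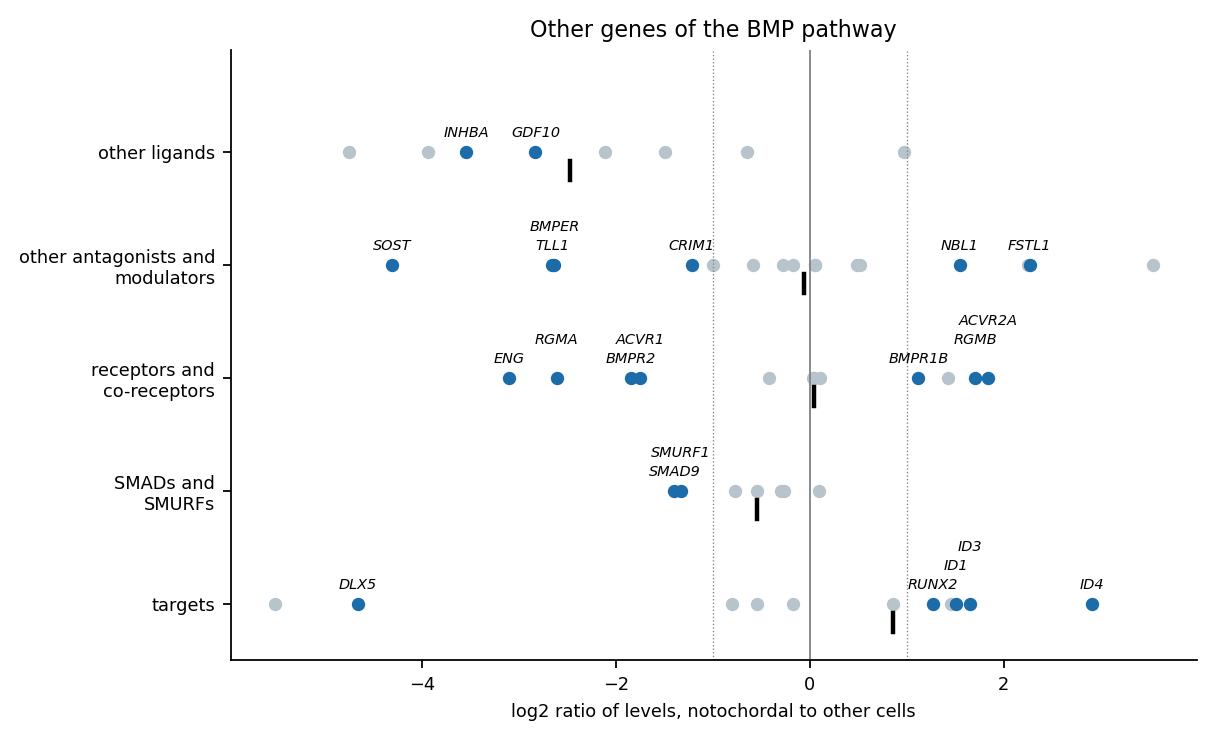
Log2 ratio of the level in notochordal to that in other cells (x axis) for the other BMP pathway genes and related ligands that were compared, by list. Named points (blue) were at least 2-fold apart and detected in 10% of the cells of a group, grey points are the rest, black bars are list medians and dotted lines mark 2-fold. No other ligand was 2-fold higher, and ID4 was the named target farthest to the right, at 2.91.

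Across single other cells the level of BMP2 was only weakly correlated with the other 7 genes, and in counts this sparse such values are no finding. Over 5343 other cells the Spearman correlation of BMP2 levels was 0.068 with GREM1, 0.055 with BMP6, 0.025 with GDF5, 0.022 with BMP4, 0.019 with CHRDL1, 0.009 with GDF6 and 0.001 with CHRDL2. Cells share a library and differ in depth, and BMP2 correlated more with the reads per cell (0.17) and the genes per cell (0.16) than with any of the 7 genes. With reads and genes per cell held constant in ranks, the 7 values lay between -0.044 (CHRDL2) and 0.032 (GREM1). By tag, the highest was 0.104 for GREM1 in A953 and the lowest -0.075 for CHRDL1 in A952. Over the 310 notochordal cells, where BMP2 counts were mostly 0 to 4 reads, the correlation was highest with BMP6, at 0.161. Of the pairs among the 8 genes, GREM1 and CHRDL1 had the highest value in other cells, 0.139 over all tags, with 0.143, 0.034, 0.106 and 0.187 in A951 to A954. With reads and genes per cell held constant in ranks, the value of this pair was 0.096.

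**Figure D4:**
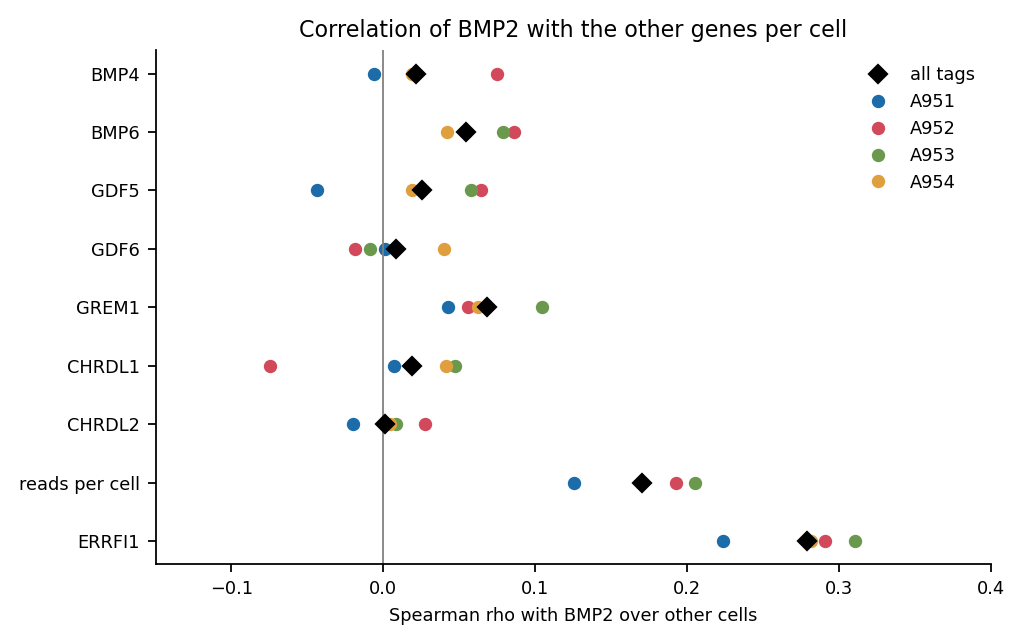
Spearman correlation across other cells (x axis) between the level of BMP2 and that of each other gene, with the reads per cell and ERRFI1 for scale. ERRFI1 was picked as the highest of 9306 genes over these same cells. Black diamonds are all tags (5343 cells) and circles the single tags. The 7 genes lie between -0.075 and 0.104 in all tags, below the values of ERRFI1, at 0.224 to 0.311.

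The other cells were also grouped by their BMP2 reads. In the 3702 other cells with 5 or more BMP2 reads, GREM1 was at 155 rpm, BMP6 at 120 rpm and CHRDL2 at 75.1 rpm, and in the 694 cells without a BMP2 read they were at 169, 111 and 86.3 rpm. None of these orders held in the 4 tags. GREM1 was at 174 and 88.5 rpm in A951 and 168 and 126 rpm in A952, but at 142 and 159 rpm in A953 and 153 and 241 rpm in A954. CHRDL1 was at 20.2 rpm in the first and 44.9 rpm in the second. The CHRDL1 order held in A951, A952 and A954 and was opposite in A953, at 5.41 and 2.01 rpm. At 5 or more reads the shares of cells were close for CHRDL1, at 7.29% in the first and 7.35% in the second. For GREM1 they were 37.9% and 24.9%, in the opposite order to its pooled levels. The cells without a BMP2 read were shallower, with a median of 110604 reads against 227829.

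For the 7 of the 8 genes detected in at least 10% of other cells, GDF6 not being among them, the genes most alike were sought by Spearman correlation over other cells among 9306 genes, as a description. BMP2 was most alike to ERRFI1 (0.279), a feedback inhibitor of EGF receptor signalling, then to DDX21 (0.247), PELI1 (0.230), FGF2 (0.224) and MMP3 (0.221). All 5 had positive values in each tag, from 0.164 to 0.311. They were picked as the highest over these same cells, so the values by tag are no independent observation. BMP6 was most alike to UGP2 (0.239), CILP (0.212) and PRSS23 (0.205). GREM1 was most alike to LOXL3 (0.258), a lysyl oxidase, and to the cartilage matrix genes COL9A1 (0.234) and ACAN (0.228), CHRDL1 to SERPINE2 (0.200), PCOLCE2 (0.186) and CPQ (0.175), and CHRDL2 to CACNA2D3 (0.267), PARVB (0.212) and PKHD1 (0.161). For BMP4 (CILP, ISLR and SEMA3D) and GDF5 (LOXL2, LSP1 and MATN4) no value exceeded 0.122. Values could differ between tags, as for GREM1 with ACAN, at 0.136, 0.054, 0.339 and 0.278 in A951 to A954. With reads and genes per cell held constant in ranks, CILP was at 0.146 with BMP6 and 0.069 with BMP4, whereas ACAN was at 0.240 with GREM1.

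The 885 other cells with 5 or more reads of both ASPN and CILP, genes of cartilage matrix, were compared with the remaining 4458. The correlations of CILP with BMP6 and BMP4 above are over the same cells, so the levels of these 2 genes here are no independent observation. BMP6 was at 161 rpm in them and 102 rpm in the rest, a log2 ratio of 0.66, with 0.58, 1.08, 0.25 and 0.85 in A951 to A954. BMP2 was at 411 and 810 rpm (-0.98) and lower in each tag, from -1.14 in A953 to -0.43 in A951. GREM1 was at 101 and 178 rpm (-0.82) and CHRDL1 at 4.80 and 31.7 rpm (-2.72), each also lower in the 4 tags.

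BMP4 was at 19.0 and 4.20 rpm in these cells and the rest, a log2 ratio of 2.18, which came from A953 (1.94) and A954 (2.32), whereas the values in A951 and A952, with 59 and 53 such cells, were -0.42 and 0.25. GDF6 was at 6.84 and 4.05 rpm (0.75), with 1.47, 1.37, 0.03 and 1.82 in A951 to A954. The ratios of GDF5 and CHRDL2 had opposite signs between tags. At 1 or more reads of ASPN and CILP, the log2 ratio was -1.01 for CHRDL1 and -0.53 for BMP2. GREM1 was then at -0.35, BMP4 at 1.48, BMP6 at 0.50 and GDF6 at 0.14. ASPN and CILP cells were deeper, with a median of 4715 genes against 3664.5. With each cell thinned to 50000 reads, 5 or more reads of BMP6 were found in 40.8% of them and 21.1% of the rest, of BMP4 in 5.38% and 0.936%, of CHRDL1 in 1.15% and 7.18%, and of BMP2 in 57.2% and 60.0%. For BMP2 the shares thus lay close together, and they were in the opposite order without thinning (75.3% and 68.1%) and at 1 or more reads after thinning (79.3% and 77.0%), so no order is read from them.

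**Figure D5:**
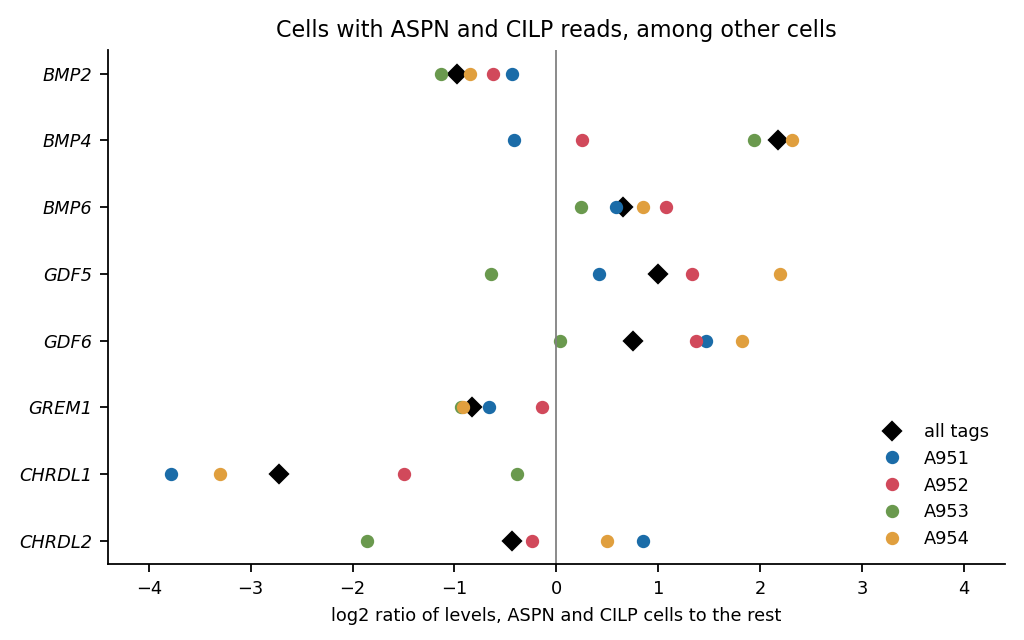
Log2 ratio of the level in other cells with 5 or more reads of ASPN and of CILP to that in the remaining other cells (x axis) for each gene, over all tags (black diamonds) and within tags (circles). BMP6 and GDF6 lie to the right of 0, GDF6 by only 0.03 in A953, and BMP2, GREM1 and CHRDL1 to the left in the 4 tags, and BMP4, GDF5 and CHRDL2 lie on both sides.

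Within the notochordal cells, the 72 with 5 or more reads of SHH were set beside the 200 without one. CHRDL1 was at 378 rpm in the first and 549 rpm in the second, and 62.5% and 69.5% of cells had 5 or more reads. The log2 ratio was -0.19 in A952, which held 62 of the 72 cells, and -1.94 in A951, which held 9. BMP2 was at 33.5 and 23.2 rpm, with a log2 ratio of 0.09 in A952 and 1.90 in A951. GREM1 was at 9.36 and 1.75 rpm, but 143 of the 173 reads of the first group came from the 1 cell of A952 noted above, and CHRDL2, at 28.3 and 5.25 rpm, had a log2 ratio of -0.03 in A952.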

How the data were processed

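With HISAT2 2.2.1 the authors mapped reads to a genome of Macaca fascicularis, whose build is not given in the sources used here, assigned them to whole Ensembl genes with featureCounts 2.0.2, keeping reads that map to several places, and summed them per cell with velocyto. The deposited values are whole-number counts of reads, not of molecules, with spliced and unspliced reads combined and no normalization. Genes that share near-identical sequence may share reads. A further 1358 cell columns belong to a library that the labels do not list and were not used. Only 1 library was used, so no cell barcodes could be shared between libraries.

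Cells with a single tag, 200 to 9000 genes and under 5% mitochondrial reads (13 genes) were kept. Counts were summed per group of cells and divided by their total, using scipy 1.17.1, numpy 2.4.6 and pandas 2.3.3 under Python 3.11.15. Intervals are 95% exact Poisson (levels, and conditional on the sum for ratios) or Clopper-Pearson (shares), and fewer than 3 reads were set to 3 in a ratio. Genes detected in at least 1% of kept cells were compared. Because cells are not replicates, no p-value was computed. The calculations were tested on simulated data.

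The genes, lists and comparisons were chosen with earlier results of these data known. The text names the 8 genes, list genes at least 2-fold apart and detected in 10% of the cells of a group, the most abundant gene of each list, and the 5 (BMP2) or 3 genes most alike. BMP7, GDF2 and INHBB are named besides, to show the limits of the ligand count. A split of other cells by PRG4 was dropped, since nearly all had it. Lists were also counted for mural cells (79.2 rpm in notochordal and 9.81 rpm in other cells, mostly ACTA2), osteoblasts (3384 and 848 rpm, nearly all SPP1, while BGLAP at 3.07 and 19.7 rpm and IBSP at 0.575 and 30.0 rpm went the other way) and red blood cells (0.0151 and 0.0455 rpm), and their part in the results was not tested. Alternatives varied the limits on cells, the notochordal rule, the averaging, depth, scaling, read threshold and tags.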

Additional observations from a re-analysis of the deposited data

Results flagged for a closer look

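BMP4 differed in sign between tags. Its log2 ratio of notochordal to other cells was -2.11 in A951, 0.33 in A952 and 1.10 in A953, and the difference between tags was not tested. Without the notochordal cell with most BMP4 reads, the value in A952 was -0.84. CHRDL2 had log2 ratios of -5.03 in A951, -4.51 in A952 and 1.04 in A953, where 1 of 5 cells held most reads, and this difference was not tested either.

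The level of BMP6 in other cells stood apart in A953. Its gap to the next tag was 0.842 of the range over the 4 tags, and 8 genes were looked at. The tags are parts of 1 library and not replicates, so this gap is given as a value and not as a test.

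The 49 cells called doublets or without a tag, which entered no comparison, held reads of each of the 8 genes. The levels were 1015 rpm for BMP2, 0.589 rpm for BMP4, 107 rpm for BMP6, 1.67 rpm for GDF5, 7.65 rpm for GDF6, 143 rpm for GREM1, 12.6 rpm for CHRDL1 and 113 rpm for CHRDL2, where 3 reads would be 0.294 rpm.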

How the results depend on the processing

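Over 18 alternatives BMP2 and GREM1 remained at least 2-fold lower and CHRDL1 at least 2-fold higher in notochordal cells. The log2 ratio of BMP2 (main value -4.77) and of CHRDL1 (4.28) was -1.67 and 3.63 with 1 or more reads of KRT19 and of TBXT as the rule, and -2.40 and 4.19 with 5 or more reads of the pair added together. It was -5.01 and 4.01 as the mean of rpm per cell, -4.58 and 5.08 as the difference of mean log2(rpm + 1), -5.79 and 4.77 without the highest 1% of cells, -5.05 and 4.06 with cells thinned to 50000 reads, and -4.93 and 4.13 in rpm without the 20 genes with most reads, which moved the median of all genes from 0.26 to 0.10. Leaving out the cells of A951, A952, A953 or A954 gave -5.48, -3.23, -4.90 and -4.94 for BMP2 and 4.26, 4.70, 3.94 and 4.58 for CHRDL1. CHRDL1 was at 4.24 with 20 or more reads of KRT19 and of TBXT and at 4.34 against other cells without a read of either. Alternatives chosen after seeing the data gave -5.23 and 3.86 within A951 and A952, -5.11 and 3.77 with the other cells weighted by tag, and -5.16 and 4.24 without the notochordal cell with most reads.

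BMP4 became 0.24 when weighted by tag and was at least 2-fold lower in 10 of the 18 alternatives. With 1 or more reads of KRT19 and of TBXT, GDF6 became 0.48, BMP6 -0.97 and CHRDL2 -0.99, and 3 genes were at least 2-fold lower, against 7. That number was 4 with mean log2(rpm + 1), where GDF5 was at -0.31 and GDF6 at -0.14, and 5 without A952, where CHRDL2 was at -0.98. The causes were not tested. The number of genes with a correlation of 0.1 or more with BMP2 was 0, and 1 (GREM1, 0.109) over all kept cells. Among SHH cells, BMP4 was at 0.55 with SHH at 1 or more reads (main value -1.44) and CHRDL2 at -0.40 with 20 or more (main value 2.43). The ratios of GDF5 and GDF6 rest on only 10 and 6 notochordal reads. The groups were compared within tags, but no paired test was made, because there is 1 sample of cDNA and no replicate.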
